A study of Mus musculus with 12 samples.

Results

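The Ly6 genes encode small surface proteins of white blood cells, and 6 of them (Ly6a, Ly6c1, Ly6c2, Ly6d, Ly6e and Ly6g) were followed here, chosen by name out of 49315 genes with a row in the count table. RNASeq libraries came from T cells of the spleen, taken from male mice by magnetic negative selection, in which other cells are labelled and removed. WT (miR-214+/+) mice and miR-214-/- mice, which lack this microRNA in every cell and not in T cells alone, were descended from heterozygous parents on a mixed S129/C57 background. From 12 weeks of age both genotypes were infused through minipumps for 14 days with vehicle (sham) or with angiotensin II (Ang II), a peptide that raises blood pressure, at 490 ng/kg per day. This gave the groups WT sham, WT Ang II, miR-214-/- sham and miR-214-/- Ang II with 3 libraries in each, and 21126874 to 29605988 counted reads per library.

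Ly6 proteins are short chains folded around disulphide bonds and held on the outer face of the cell membrane by a lipid, the glycosylphosphatidylinositol (GPI) anchor. Each marks particular blood cells. Ly6a (Sca-1) is known from blood stem cells and from activated and memory T cells, the Ly6c proteins from monocytes and memory CD8 T cells, Ly6d from B-lineage cells and Ly6g from neutrophils, while Ly6e is found widely. Interferons raise several of them, Ly6a, Ly6c and Ly6e above all. A microRNA binds messages mainly through its seed, bases 2 to 8, which pairs with matching sites in the 3′ UTR.

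The mature strand of miR-214 lies on the + strand at chr1:162223438-162223459 (RefSeq sequence, GRCm38.p6). It is shown because its absence defines the miR-214-/- groups, with the seed in capitals.
mmu-miR-214-3p: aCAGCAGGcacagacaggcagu

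The match to this seed, CCTGCTG, was searched on the sense strand of the annotated 3′ UTR of each Ly6 gene in GRCm38, taking the isoform with the longest 3′ UTR (some shorter isoforms of Ly6c1, Ly6c2 and Ly6e lack a match). It was found 7 times in 5 of the 6 genes and not in Ly6d. The matches are shown in capitals with 10 bases on either side, in the sense of each message, so that the copies can be compared.
Ly6a, chr15:74995102-74995128, - strand: ctttatagccCCTGCTGggtaggtagg
Ly6c1, chr15:75045241-75045267, - strand: ctttatagccCCTGCTGggtaagtgcc
Ly6c2, chr15:75108382-75108408, - strand: ctttatagccCCTGCTGggtaagtgcc
Ly6c2, chr15:75108177-75108203, - strand: gtcaatgaccCCTGCTGagtccaataa
Ly6e, chr15:74959279-74959305, + strand: acactggcttCCTGCTGctattctagt
Ly6e, chr15:74959692-74959718, + strand: acttcagaggCCTGCTGttgccacttg
Ly6g, chr15:75158880-75158906, + strand: ctttataaccCCTGCTGtataggcacc

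The first match of Ly6a, Ly6c1, Ly6c2 and Ly6g begins at base 144, 145, 145 and 151 of the 3′ UTR and stands in nearly the same letters, and the 27 bases of Ly6c1 and Ly6c2 are the same. These 4 are therefore copies of 1 stretch and not separate occurrences. Among all genes with an annotated 3′ UTR, 4580 of 21160 (21.6%) held the 7 bases. The second match of Ly6c2 is the one followed by an A. A match of letters is a description and not a measured site of binding.

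The 6 genes lie within 397.1 kb of chromosome 15 (GRCm38), from the start of Ly6d at 74762056 to the end of Ly6g at 75159126. Between these points the annotation lists 25 genes, of which 14 are coding and 6 are pseudogenes, and none of the 6 Ly6 genes overlaps another gene. Ly6e (ENSMUSG00000022587) and Ly6g (ENSMUSG00000022582) are on the + strand, and Ly6d (ENSMUSG00000034634), Ly6a (ENSMUSG00000075602), Ly6c1 (ENSMUSG00000079018) and Ly6c2 (ENSMUSG00000022584) on the - strand. The coding sequences of Ly6c1 and Ly6c2 are identical at 387 of 396 aligned bases (97.7%). Ly6a matches them and Ly6g at 83.2% to 83.8% of aligned bases, and Ly6d and Ly6e match the others at 55.8% to 65.7%. Only reads that map to 1 place were counted, and 5.61% of the 150-base windows of Ly6c1 and 5.80% of those of Ly6c2 occur in the other gene. For 75-base windows the shares were 23.2% and 21.9%, and 6.22% for Ly6a, shared with Ly6c1 and Ly6i. The values of this pair therefore miss some reads and are uncertain to that extent.

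Levels are given as CPM, a gene's reads relative to the library total after TMM scaling, and are compared between genes as CPM per kb of exon. On the per-kb scale Ly6e was the most abundant, with group means of 186 to 209 and 169.6 in its lowest library. Ly6a followed with group means of 66.6 to 104 and Ly6c2 with 48.7 to 71.1, and their libraries overlapped. Ly6d had group means of 10.6 to 18.3 and Ly6c1 of 7.98 to 13.1, and these overlapped as well. Ly6g was the lowest in group mean, between 0.88 in WT sham and 7.72 in WT Ang II. On this scale the order Ly6e, Ly6a, Ly6c2 of the group means was the same in all 4 groups. Ly6e exceeded the other 5 genes in each of the 12 libraries. The exon length takes all annotated isoforms together, 1205 bases for Ly6a and 2740 for Ly6c2, and the order depends on it. In CPM Ly6c2 was above Ly6a, with group means of 133 to 195 against 80.3 to 125. Ly6c1 was likewise above Ly6d in CPM in the mean of each group.

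**Figure D1:**
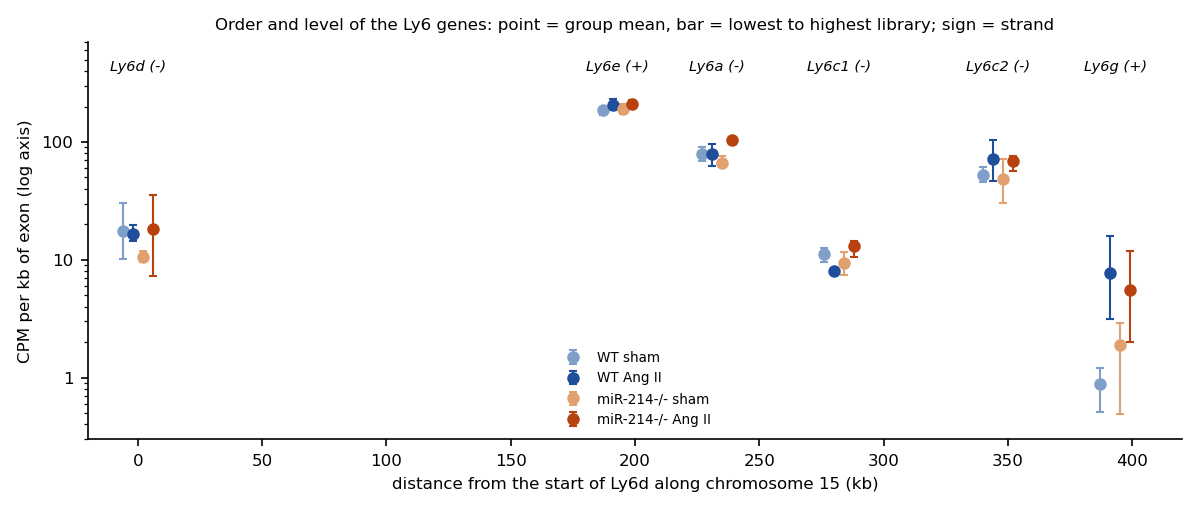
The level of each Ly6 gene in CPM per kb of exon (log axis) against its distance from the start of Ly6d in kb. Points are group means of 3 libraries, drawn side by side around each gene's position, bars run from the lowest to the highest library, and the sign after each name gives the strand. Ly6e stands highest with group means of 186 to 209, and Ly6g lowest with 0.88 to 7.72.

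Each comparison asked how Ang II or the loss of miR-214 moves these messages, and was tested with edgeR's quasi-likelihood test on the counts of the groups compared. A gene passed at a Benjamini-Hochberg adjusted p under 0.05 over all genes tested. In WT, Ang II against sham, 1 of 6 Ly6 genes passed, Ly6g, while 18.8% of the 16012 genes tested passed, so that the share of Ly6 genes is near the background. In miR-214-/-, Ang II against sham, none of the 6 passed and 0% of 15937 genes did. Between miR-214-/- and WT in sham none of the 6 passed, with 0.0251% of 15913 genes, and under Ang II none of the 6 passed, with 0% of 16215 genes. In the test of whether the Ang II effect differs between the genotypes, the interaction, none of the 6 passed and 0.00596% of 16770 genes did. At an unadjusted p under 0.05 the counts of Ly6 genes were 2 in WT (Ly6c1 and Ly6g), 2 in miR-214-/- (Ly6a and Ly6c1), 0 in sham, 2 under Ang II (Ly6a and Ly6c1) and 2 for the interaction (Ly6a and Ly6c1). Over all genes these counts were 5705 of 16012, 1939 of 15937, 1061 of 15913, 1388 of 16215 and 2483 of 16770 in the same order.

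DESeq2 (Wald test with its own size factors), run on the same counts, passed more genes. It passed Ly6c1 and Ly6g in WT, where it passed 22.1% of genes, and Ly6a in miR-214-/-, where it passed 2.13%. It also passed Ly6c1 under Ang II, with 0.224% of genes, and for the interaction, with 3.22%. In sham it passed none of the 6.

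**Figure D2:**
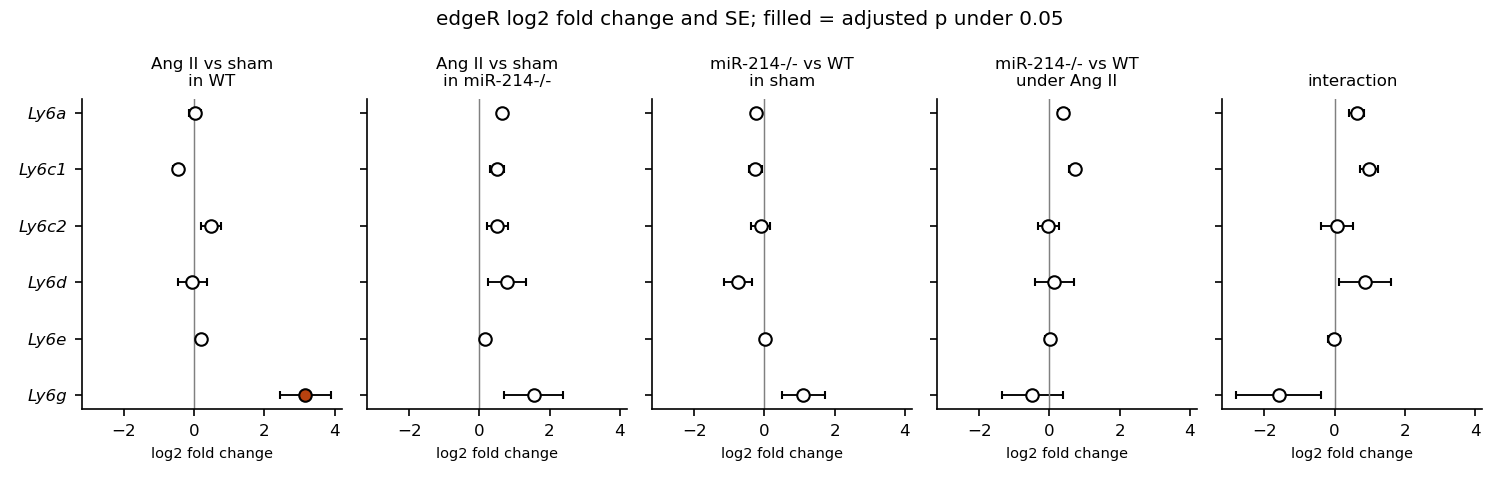
The edgeR log2 fold change of the 6 Ly6 genes in the 5 comparisons, with bars of 1 SE. The filled point, Ly6g in WT at 3.16, is the one that passed at an adjusted p under 0.05, and for the interaction, where none passed, Ly6c1 (0.97), Ly6d (0.87), Ly6a (0.64) and Ly6c2 (0.07) lie above 0 and Ly6e (-0.02) and Ly6g (-1.60) below it.

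The purity of the T cells bears on genes that mark other cells. T cell markers were high in every library, with 284 to 460 CPM of Cd3e, a chain of the T cell receptor complex. In WT, Ang II against sham, 11 of 12 T cell markers passed as lower and 14 of 14 neutrophil markers as higher. Higher too were 4 of 12 monocyte or macrophage markers, 5 of 10 of red-cell precursors, 6 of 7 of blood progenitors and 2 of 7 tested of endothelial cells, where 1 passed as lower. None of 9 B cell, 7 plasma cell, 3 tested NK cell and 7 plasmacytoid dendritic cell markers passed. In the other 4 comparisons no marker of these lists passed. The summed CPM of the neutrophil markers ran from 229.8 to 308.6 across WT sham libraries and from 1259 to 3742 across WT Ang II libraries. With miR-214 deleted it ran from 298 to 1169 for sham and from 629.6 to 3440.7 for Ang II. The highest of each Ang II group were WT Ang II replicate 1 and miR-214-/- Ang II replicate 2, which stand apart in several results that follow. In bulk RNA, fewer cells of a type and less RNA per cell cannot be told apart. The deleted microRNA could not be checked, since Mir214 had 0 counts in all 12 libraries of this poly(A)-selected RNA, WT included, where each 0 allows up to 3 counts.

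Ly6g, a surface protein of neutrophils often used to recognise them, was the Ly6 gene with the largest log2 fold change. It had 20, 12 and 25 counts in WT sham against 428, 83 and 90 in WT Ang II, or 0.873, 0.476 and 1.14 CPM against 15.04, 2.96 and 3.81. Every WT Ang II library was above every WT sham library, and replicate 1 was the highest. The log2 fold change was 3.16 ± 0.72 (SE, n = 3 per group), an 8.96-fold rise that passed in edgeR (adjusted p = 0.0268). The call was lost when any 1 of the WT sham libraries was left out, at log2 fold changes of 2.88 to 3.45. The edgeR adjusted p was 0.0907 without replicate 1, 0.0843 without replicate 2 and 0.0739 without replicate 3. Calls over all genes fell in these fits too. Genes passing as higher went from 1878 to 727, 1151 and 862, and those passing as lower from 1131 to 412, 436 and 519. Without WT Ang II replicate 1 the log2 fold change was 2.05, less than the full value, and it passed (edgeR adjusted p = 0.0116), as did 21.8% of all genes in that fit.

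In miR-214-/- mice Ly6g was spread as widely within groups as between them. The CPM of the sham libraries were 2.12, 0.465 and 2.72, and those of the Ang II libraries 2.45, 11.2 and 1.88. The groups overlapped, with only replicate 2 of Ang II above the sham libraries. The log2 fold change was 1.54 ± 0.83 (edgeR adjusted p = 0.489), and 0.28 without that library. Ly6g was 2.15-fold higher in miR-214-/- than in WT in sham (log2 1.11 ± 0.61, edgeR adjusted p = 0.810). Under Ang II the difference was -0.49 ± 0.87 on the log2 scale (edgeR adjusted p = 0.842), which became 0.63 without WT Ang II replicate 1 and -1.75 without miR-214-/- Ang II replicate 2, neither of which passed. The interaction was -1.60 ± 1.20 (edgeR adjusted p = 0.533), so that no difference between the genotypes was detectable in these libraries.

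The genes most like Ly6g over the 12 libraries, among 12289 genes with a mean log2 CPM of at least 1, were Cd177, Ngp and Ltf, with Pearson's r of log2 CPM of 0.99, 0.99 (0.985) and 0.98. All 3 are known from neutrophils, Cd177 as a surface protein of the same Ly6/uPAR family and Ngp and Ltf as contents of their granules. Ly6g amounted to 0.32% ± 0.17 of the summed neutrophil markers in WT sham and 0.28% ± 0.10 in WT Ang II (SD, n = 3). With miR-214 deleted the ratio was 0.23% ± 0.073 for sham and 0.27% ± 0.069 for Ang II. The libraries overlapped in each of the 4 comparisons of 2 groups, in WT as well, where Ly6g by itself did not.

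Ly6c1 and Ly6c2 encode the near-identical proteins that antibodies to Ly6C detect. Ly6c1 had the largest difference between genotypes in response to Ang II apart from Ly6g. It measured 18.8, 20.99 and 16.1 CPM in WT sham and 13.1, 13.2 and 13.9 CPM in WT Ang II. The 3 WT Ang II libraries lay close together and below all WT sham libraries. In miR-214-/- mice the values were 19.7, 12.5 and 14.6 CPM in sham and 17.8, 23.9 and 24.1 CPM in Ang II. There the groups overlapped, with replicate 1 high in sham and low in Ang II.

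In WT the Ly6c1 log2 fold change was -0.46 ± 0.14, a level 0.729 of that in sham, which did not pass (edgeR adjusted p = 0.0571, unadjusted p = 0.0120) and passed in DESeq2 (adjusted p = 0.0270). Over all alternatives the adjusted p in WT ranged from 0.0270 to 0.828. In miR-214-/- it was 0.50 ± 0.20, or 1.41-fold (edgeR adjusted p = 0.402). Under Ang II Ly6c1 was 1.64-fold higher in miR-214-/- than in WT (log2 0.72 ± 0.15, edgeR adjusted p = 0.569, DESeq2 adjusted p = 0.0398), and all 3 miR-214-/- libraries were above all 3 WT libraries. With 3 against 3 libraries an exact two-sided permutation test cannot go below p = 0.1, which is the value it gave. In sham the difference was -0.26 ± 0.19 (edgeR adjusted p = 0.859).

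The Ly6c1 interaction was 0.97 ± 0.25 on the log2 scale, positive where Ang II moved the gene up more in miR-214-/- than in WT. It did not pass in edgeR (adjusted p = 0.213, unadjusted p = 0.00260) and passed in DESeq2 (adjusted p = 0.0214). Without miR-214-/- Ang II replicate 1 it was 1.101 and passed in edgeR (adjusted p = 0.0325), in a fit where 5.35% of all genes passed (919 of 17172, against 1 of 16770 with all libraries). Over all alternatives the adjusted p ranged from 0.0214 to 0.475.

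T cell markers were lower in WT with Ang II too. Their median log2 fold change in WT was -0.50, against -0.02 over all genes tested, and -0.01 in miR-214-/- against 0.03. Their summed CPM was 5389.6 to 6310.2 in WT sham and 3653 to 4328 in WT Ang II, without overlap. With miR-214 deleted it was 4902 to 5662 for sham and 4267 to 5726 for Ang II, which overlapped. As a share of the summed T cell markers Ly6c1 was 0.32% ± 0.057 in WT sham and 0.33% ± 0.041 in WT Ang II. With miR-214 deleted the shares were 0.30% ± 0.048 for sham and 0.43% ± 0.018 for Ang II (SD, n = 3), with no overlap between these groups (exact permutation p = 0.1, the smallest possible). On this scale the WT groups overlapped, and miR-214-/- Ang II lay above both miR-214-/- sham and WT Ang II.

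With libraries scaled to the T cell markers in the edgeR fit, chosen after seeing the data, the median of all genes moved to 0.50 in WT and 50.8% of genes passed there. Ly6c1 then had log2 fold changes of 0.055 in WT (adjusted p = 0.828) and 0.52 in miR-214-/- (adjusted p = 0.650), and an interaction of 0.46 (adjusted p = 0.183). The WT value is below the median of 0.50 over all genes, and the interaction stands beside a median of -0.49 over all genes in its fit. The genes most like Ly6c1 were Riok1, Zfp300 and Afp (r = 0.95, 0.93 and 0.93). None of them belongs to the lists used here.

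**Figure D3:**
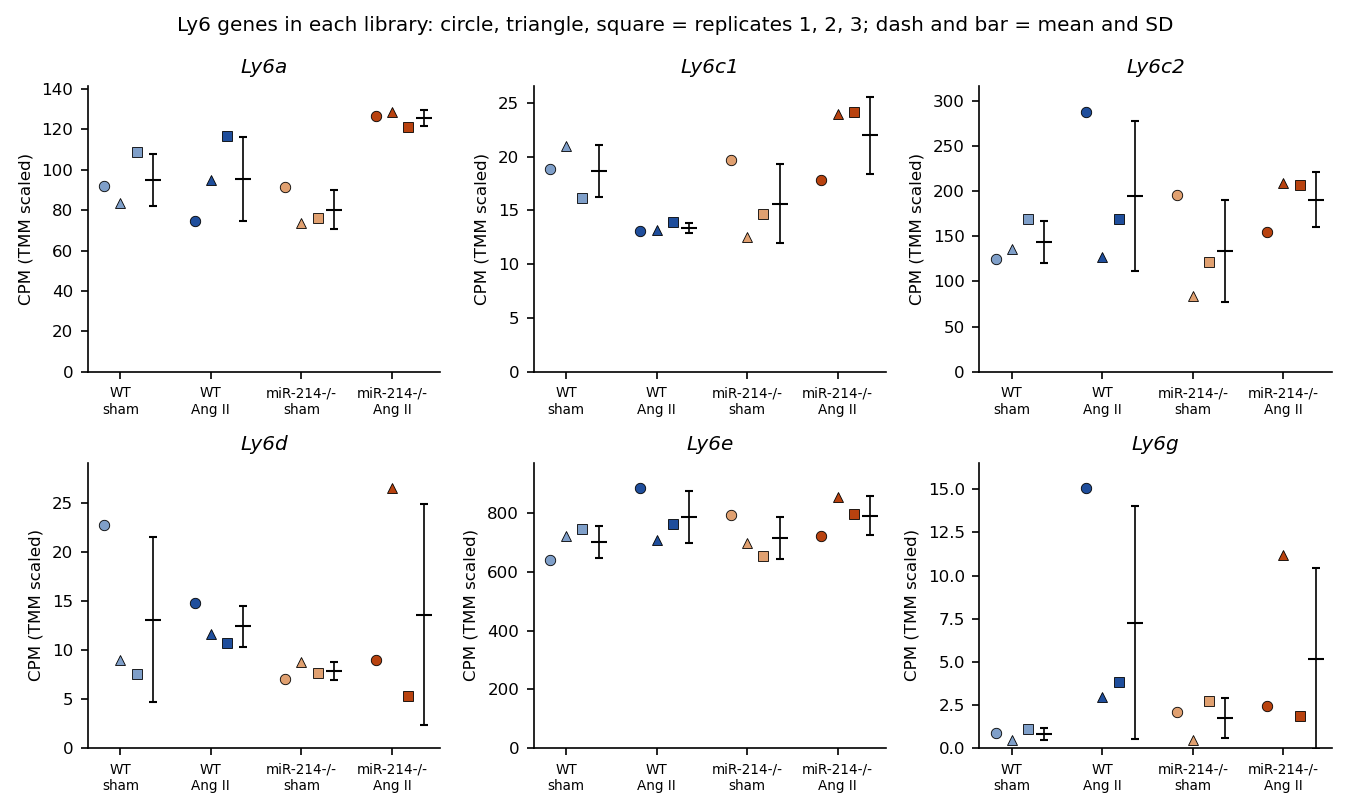
CPM of the 6 Ly6 genes in each of the 12 libraries, in panels with axes from 0. Circles, triangles and squares are replicates 1, 2 and 3 of each group, and the dash with its bar gives the mean and SD. Ly6c1 is lowest in group mean and tightest in WT Ang II (13.1 to 13.9 CPM), though its lowest library is miR-214-/- sham replicate 2 (12.5 CPM). Ly6a is highest and tightest in miR-214-/- Ang II (121 to 129 CPM), and in Ly6g and Ly6d 1 library lies far above the rest of its group.

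Ly6c2 was the more abundant of the pair, with 124, 136 and 169 CPM in WT sham and 287.6, 127 and 169 CPM in WT Ang II. Its values with miR-214 deleted were 195, 83.8 and 121 CPM for sham and 155, 209 and 207 CPM for Ang II. WT Ang II replicate 1 stood alone, and the other WT Ang II libraries, at 127 and 169, lay within the range of WT sham, and the miR-214-/- groups overlapped. Its log2 fold changes with Ang II were 0.47 ± 0.29 (WT) and 0.52 ± 0.29 (miR-214-/-), with edgeR adjusted p of 0.287 and 0.508. The genotypes differed by -0.11 ± 0.28 in sham and -0.03 ± 0.30 under Ang II, and the interaction was 0.07 ± 0.45 (edgeR adjusted p of 0.969, 0.970 and 0.954). Without WT Ang II replicate 1 the value in WT was 0.070 (edgeR adjusted p = 0.796). The genes most like it were Lgals1, Vim and Nkiras2 (r = 0.95, 0.93 and 0.93), the first coding for a galactose-binding lectin and the second for an intermediate filament protein. With the summed monocyte or macrophage markers r was 0.77 over the 12 libraries, on log2 values that share a scaling. Ly6g (0.91) and Ly6e (0.74) followed these markers too.

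Reads of Ly6c1 made up 13.1%, 13.4% and 8.69% of the Ly6c1 and Ly6c2 reads together in WT sham and averaged 7.11% ± 2.55 (SD, n = 3) in WT Ang II, where the range was 4.35% to 9.38%. With miR-214 deleted the share averaged 10.97% ± 1.92 for sham and 10.3% ± 0.080 for Ang II. This share needs no scaling between libraries. It was lowest in WT Ang II replicate 1, and both WT groups overlapped, as did both miR-214-/- groups. All 3 miR-214-/- Ang II libraries, at 10.3% to 10.4%, were above the 3 WT Ang II libraries (exact permutation p = 0.1).

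Ly6a, known as Sca-1, had the lowest unadjusted p of the 6 genes over the 5 comparisons, in miR-214-/- mice with Ang II. It measured there 91.3, 73.5 and 75.96 CPM in sham and 127, 129 and 121 CPM in Ang II. The 3 Ang II libraries were close to each other and all above the sham libraries. The log2 fold change was 0.65 ± 0.098, or 1.57-fold, which did not pass in edgeR (adjusted p = 0.208, unadjusted p = 0.000282) and passed in DESeq2 (adjusted p = 0.000123). Leaving out 1 library at a time, the log2 fold change stayed between 0.59 and 0.75 and the edgeR adjusted p between 0.176 and 0.697.

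In WT the Ly6a values were 92.2, 83.7 and 109 CPM in sham and 74.9, 95.1 and 117 CPM in Ang II. These overlapped fully, and the log2 fold change was 0.03 ± 0.17 (edgeR adjusted p = 0.909). The interaction was 0.64 ± 0.21 (edgeR adjusted p = 0.244, unadjusted p = 0.0118). Under Ang II Ly6a was 1.31-fold higher in miR-214-/- than in WT (log2 0.39 ± 0.16, edgeR adjusted p = 0.569), with no overlap, and in sham the log2 difference was -0.25 ± 0.12 (edgeR adjusted p = 0.781).

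As a share of the summed T cell markers Ly6a was higher with Ang II in both genotypes, without overlap. In WT the share was 1.62% ± 0.17 for sham and 2.41% ± 0.74 for Ang II, and with miR-214 deleted 1.54% ± 0.071 and 2.49% ± 0.42 (SD, n = 3, exact permutation p = 0.1 for each). In the edgeR fit scaled to the T cell markers, Ly6a passed in WT (log2 fold change 0.57, adjusted p = 0.0477), close to the median of 0.50 over all genes in that fit, and had 0.69 in miR-214-/- (adjusted p = 0.447). The interaction on that scale was 0.12 (edgeR adjusted p = 0.754), beside a median of -0.49 over all genes in that fit. The genes most like Ly6a were Timm17a, Gnl3l and Myg1 (r = 0.93, 0.93 and 0.92), the first a subunit of the mitochondrial protein import machinery. Between Ly6a and Ly6c1 r was 0.54.

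**Figure D4:**
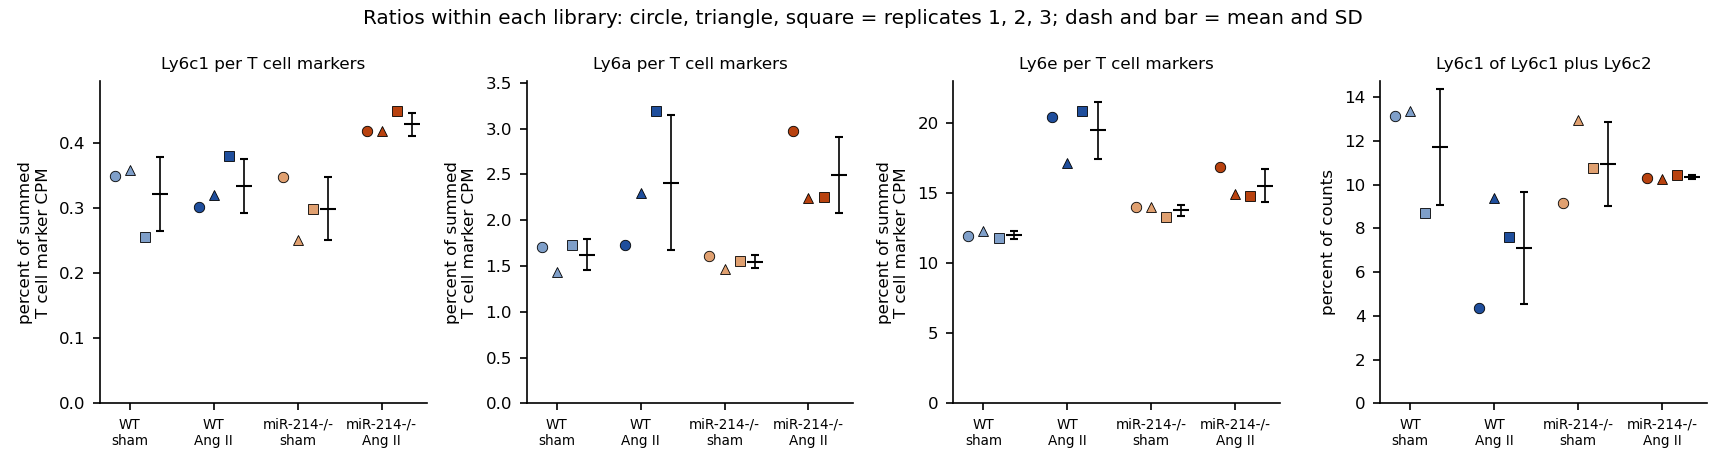
Ratios within each of the 12 libraries, with axes from 0. The first 3 panels give Ly6c1, Ly6a and Ly6e as a percentage of the summed CPM of 12 T cell markers, and the last gives Ly6c1 as a percentage of Ly6c1 and Ly6c2 reads together. Symbols are replicates 1 to 3, and the dash with its bar is the mean and SD. Ly6c1 per T cell markers is highest in miR-214-/- Ang II (0.43%), and Ly6e per T cell markers in WT Ang II (19.5%).

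Ly6e, an interferon-inducible and widely expressed member, had the most reads. It measured 642, 720 and 744 CPM in WT sham and 883.5, 709.8 and 763 CPM in WT Ang II. Its values with miR-214 deleted were 794, 699 and 653 CPM for sham and 721, 854 and 797 CPM for Ang II. The groups overlapped in each of the 4 comparisons. Its log2 fold changes with Ang II were 0.18 ± 0.11 (WT) and 0.15 ± 0.12 (miR-214-/-), with edgeR adjusted p of 0.270 and 0.650. The genotypes differed by 0.02 ± 0.10 in sham and 0.01 ± 0.13 under Ang II, and the interaction was -0.02 ± 0.16 (edgeR adjusted p of 0.985, 0.979 and 0.969), so that each of these was smaller than its SE. The sign of the value under Ang II turned with the scaling and was -0.0022 in DESeq2.

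Set against the T cell markers, Ly6e separated more. It was 12.01% ± 0.27 of their sum in WT sham and 19.5% ± 2.03 in WT Ang II. With miR-214 deleted it was 13.8% ± 0.40 for sham and 15.5% ± 1.179 for Ang II (SD, n = 3). In each of the 4 comparisons of 2 groups these did not overlap (exact permutation p = 0.1). Between genotypes, miR-214-/- against WT, the log2 ratios of the mean shares were 0.20 in sham and -0.33 under Ang II. With libraries scaled to the T cell markers, the medians over all genes were 0.17 and -0.33, so Ly6e was near the median in both. For Ang II in miR-214-/- the log2 ratio was 0.17, beside a median of 0.06. In the edgeR fit scaled to the T cell markers, Ly6e passed in WT (log2 fold change 0.70, adjusted p = 0.00194), as did Ly6c2 (0.97, adjusted p = 0.0117), beside a median of 0.50 over all genes. The interaction of Ly6e in that fit was -0.53 (edgeR adjusted p = 0.0580), with a median of -0.49 over all genes. The genes most like Ly6e were Rab7, Fkbpl and Pgam1 (r = 0.94, 0.91 and 0.90), which code for a GTPase of late endosomes, an immunophilin-like protein and an enzyme of glycolysis. Ly6e and Ly6c2 had r of 0.86, the highest between any pair of the 6, followed by Ly6c2 and Ly6g (0.74).

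Ly6d, which marks cells committed to the B lineage, was high in 2 libraries. It measured 22.7, 8.97 and 7.56 CPM in WT sham and 14.8, 11.7 and 10.8 CPM in WT Ang II. Its values with miR-214 deleted were 7.06, 8.83 and 7.70 CPM for sham and 9.002, 26.4 and 5.37 CPM for Ang II. WT sham replicate 1 and miR-214-/- Ang II replicate 2 stood far above the rest of their groups. Its log2 fold changes with Ang II were -0.06 ± 0.41 (WT) and 0.80 ± 0.54 (miR-214-/-), with edgeR adjusted p of 0.936 and 0.567. Without WT sham replicate 1 the WT value was 0.61, and without miR-214-/- Ang II replicate 2 the value in miR-214-/- was -0.13, neither of which passed. The genotypes differed by -0.74 ± 0.40 in sham, which became -0.071 without WT sham replicate 1, and by 0.14 ± 0.55 under Ang II. The interaction was 0.87 ± 0.75 (edgeR adjusted p = 0.587).

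The same 2 libraries were highest in B cell genes. The summed CPM of 9 B cell markers was 370.4 in WT sham replicate 1 and 464 in miR-214-/- Ang II replicate 2, and between 58.3 and 184 in the other 10 libraries. The Pearson correlation of Ly6d with this sum on log2 values was 0.93 over the 12 libraries. Ly6d amounted to 8.41% ± 3.59 of the B cell markers in WT sham and 8.71% ± 2.52 in WT Ang II. With miR-214 deleted it was 10.1% ± 2.01 for sham and 7.93% ± 1.98 for Ang II, and the groups overlapped in each of the 4 comparisons. The genes most like Ly6d were Pxdc1, Fcrla and Siglecg (r = 0.98, 0.97 and 0.96), of which Fcrla and Siglecg are known from B cells.

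**Figure D5:**
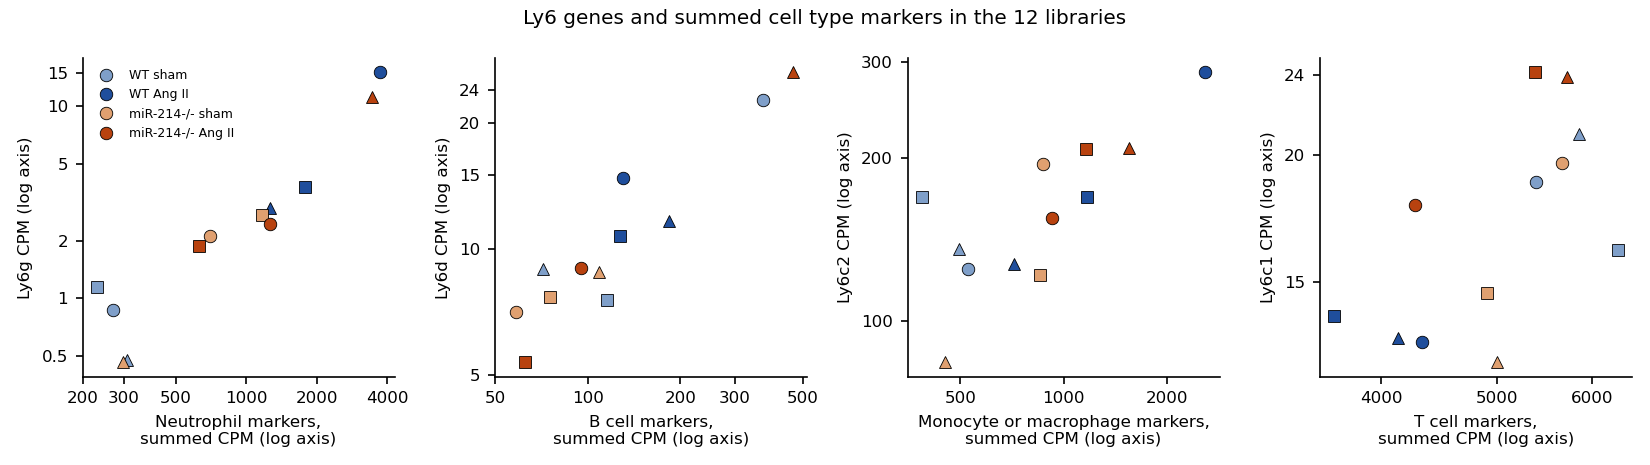
Ly6g, Ly6d, Ly6c2 and Ly6c1 in CPM against the summed CPM of neutrophil, B cell, monocyte or macrophage and T cell markers, 1 point per library, all axes on a log scale. Circles, triangles and squares are replicates 1, 2 and 3. Ly6g rises along the neutrophil markers (r = 0.945) and Ly6d along the B cell markers (r = 0.93), with 2 libraries at the upper end of each. Ly6c1 follows the T cell markers less closely (r = 0.61). In pairs not drawn, r of Ly6g was 0.91 with the monocyte or macrophage markers. For Ly6c1 it was 0.69 with the endothelial markers and 0.64 with the interferon-stimulated genes. The endothelial sum was mostly Pecam1, with a mean of 180 CPM, the next being Vwf with 8.59 CPM. In WT with Ang II that sum fell from 207 to 167 CPM, while 6 of the 7 endothelial markers tested had log2 fold changes above 0.

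The log2 differences between genotypes of the 5 genes with CCTGCTG in the 3′ UTR had both signs. Those of Ly6c2 and Ly6e were smaller than their SE in sham and under Ang II. In sham their log2 differences, miR-214-/- minus WT, were -0.25 (Ly6a), -0.26 (Ly6c1), -0.11 (Ly6c2), 0.02 (Ly6e) and 1.11 (Ly6g), beside -0.74 for Ly6d. Under Ang II they were 0.39, 0.72, -0.03, 0.01 and -0.49 in the same order, beside 0.14 for Ly6d. None of these passed in edgeR. The first matches of Ly6c1 and Ly6c2 are the same 27 bases, as printed above, and Ly6c2 has 1 more. The differences of these genes under Ang II were 0.72 ± 0.15 and -0.03 ± 0.30. Leaving out 1 library at a time, the Ly6c2 value ranged from -0.27 to 0.37. Whether miR-214 acts through these matches was not tested.

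Other genes of the Ly6/uPAR family were few in these cells. Of 34 listed, 32 had a row and 26 at least 1 count, and 9 passed the filter on low counts in WT. Cd177, the neutrophil member, passed there as higher (log2 fold change 2.91 ± 0.46, edgeR adjusted p = 0.00873), from 7.67 CPM in WT sham to 56.6 in WT Ang II as group means. It followed Ly6g in the miR-214-/- groups too, with group means of 16.98 and 41.5 CPM, and passed in none of the other 4 comparisons. The median log2 fold change in WT was 0.19 for the 9 genes and 0.11 for the 6 Ly6 genes, beside -0.02 for all genes. No family gene other than Cd177 passed in any comparison.

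The GPI anchor of Ly6 proteins is built by a set of enzymes in the endoplasmic reticulum. Of 27 such genes, all tested, 1 passed as higher and 1 as lower in WT with Ang II, a smaller share than the 18.8% of all genes. Pigq, of the enzyme complex for the first step, rose by 0.92 ± 0.14, and Pigx, of the mannosyltransferase for the first mannose, fell by 0.32 ± 0.084 on the log2 scale (edgeR adjusted p of 0.00849 and 0.0400). Their median was -0.00 (-0.0023), beside -0.02 for all genes. None passed in the other 4 comparisons.

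Interferon-stimulated genes were examined because interferons raise Ly6a, Ly6c and Ly6e. Of 35 tested in WT, 5 passed as lower and 1 as higher with Ang II, a share near the 18.8% of all genes, and the median was -0.26. The 4 largest were Isg20, an exonuclease (1.26 ± 0.10, higher), Usp18, which removes ISG15 (-0.66 ± 0.089), Ddx58, the RNA sensor RIG-I (-0.42 ± 0.081), and Igtp, a GTPase (-0.39 ± 0.10), with edgeR adjusted p of 0.00114 to 0.0402. The median log2 fold change of the T cell markers was -0.50 in the same comparison. The interferon-stimulated median was 0.03 in miR-214-/-, where none passed, nor did any in the genotype comparisons or the interaction.

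Memory-phenotype T cells carry Ly6c and Ly6a, and 20 genes listed for this phenotype were tested. They include memory, effector and naive genes, and also genes such as Cd8a and Cd8b1. In WT, 6 passed as lower and 1 as higher with Ang II, where 18.8% of all genes passed. Values of 19 of the 20 were below 0, those of memory and effector genes as well as naive ones. The median was -0.51, beside -0.50 for the T cell markers in the same comparison. Cd44, the adhesion receptor high on memory cells, rose (0.71 ± 0.11) and was the one gene of the list above 0, while Lef1 (-0.66 ± 0.097), Satb1 (-0.65 ± 0.068) and Ccr7 (-0.65 ± 0.078), which are known from naive T cells, fell, with edgeR adjusted p of 0.00264 to 0.00763. The other 3 that passed were lower as well. Among the memory and effector genes, Eomes (-0.46), Tbx21 (-0.52) and Il2rb (-0.27), chosen after their values were seen, did not pass. In miR-214-/- the median was -0.05, and none passed there or in the other 3 comparisons.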

How the data were processed

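The authors deposited raw counts for each gene in 12 libraries, 3 for every group, made with featureCounts (Subread 1.5.2) from uniquely mapped exonic reads on GRCm38 after Trimmomatic and STAR. The strand setting of the counting is not given in the sources used here. Of 49315 gene identifiers, 48970 matched GENCODE vM21.

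Tests used R 4.3.3 and edgeR 4.0.16 (filterByExpr, TMM, the legacy quasi-likelihood fit) on the groups compared, with Benjamini-Hochberg adjustment over all genes tested. The interaction was fitted over the 12 libraries. Alternatives were DESeq2 1.42.0, other scalings and filters, a fold minimum, a replicate block, the adjusted-deviance fit, 1 fit over all groups and leaving out each library. Scripts were tested on simulated data. CPM were scaled over 12 libraries, and likeness between genes is Pearson's r of log2 CPM (prior count 2). For likeness to a marker sum, r was taken on log2 CPM with a small constant added instead. Totals of 21126874 to 29605988 counts set the precision, and the limit of 3 counts covers counting error only.

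All 6 Ly6 genes were named in every comparison, and from each other gene list those that passed, at most the 4 with the largest change. These genes, the lists and the comparisons were chosen with earlier results of these data known. Per the study's methods the libraries of a group are independent mice. No libraries of a group were identical.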

Additional observations from a re-analysis of the deposited data

How the results depend on the processing

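Over 492 alternative values of the log2 fold changes, 439 kept direction and side of the threshold, 42 turned direction, and none of those that turned passed. With DESeq2, 2 Ly6 genes passed in WT, 1 in miR-214-/-, 1 under Ang II and 1 for the interaction. Scaled to the T cell markers, 4 passed in WT. Leaving out 1 library at a time, 0 to 1 passed in WT and 0 to 1 for the interaction. That scaling and leaving out both Ang II libraries with the most Ly6g were chosen after seeing the data, and the causes were not tested. Over all genes 3009 passed in WT, between 946 and 3711 under the alternatives without that scaling and 8128 with it, and DESeq2 passed 277 in miR-214-/- (0 in edgeR), 94 in sham (4), 33 under Ang II (0) and 444 for the interaction (1). Leaving out 1 library, 0 to 919 genes passed for the interaction, the most without miR-214-/- Ang II replicate 1. The calls in WT were 62.4% higher genes, 71.3% with library size scaling, 73.3% with no filter and 99.9% scaled to the T cell markers.

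With the replicate block, samples that share a number did not deviate together in every pair (correlations of -0.56 to 0.20), so the numbers do not pair them. The block left 1 Ly6 gene passing in WT and 0 elsewhere, and turned Ly6d in WT (0.11) and, under Ang II, Ly6c2 (0.045) and Ly6d (-0.19). Scaled to the T cell markers, Ly6c1 in WT (0.055), Ly6d in WT (0.40), Ly6c2 in sham (0.055), Ly6d (-0.25) and Ly6e (-0.33) under Ang II and the interaction of Ly6c2 (-0.42) turned. Without both Ang II libraries with the most Ly6g Ly6c2 (0.31) and Ly6d (-0.62) under Ang II and the interaction of Ly6e (0.017) turned. Ly6e under Ang II was -0.0022 with DESeq2, -0.0020 with RLE and -0.035 with library size scaling. Leaving out 1 library, values ranged from -0.14 to 0.18 for Ly6a and from -0.34 to 0.61 for Ly6d in WT, from -0.13 to 1.17 for Ly6d in miR-214-/-, and in sham from -0.48 to 0.14 for Ly6c2 and from -0.056 to 0.090 for Ly6e. Under Ang II they ranged from -0.27 to 0.37 for Ly6c2, from -0.78 to 0.52 for Ly6d, from -0.068 to 0.12 for Ly6e and from -1.75 to 0.63 for Ly6g. Interactions ranged from -0.18 to 0.46 for Ly6c2, from -0.057 to 1.25 for Ly6d and from -0.085 to 0.075 for Ly6e. Ly6g, with 10 to 25 counts in 4 libraries, is limited by depth.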
